A study of Mus musculus with 16 samples.

Results

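The IL-20 subfamily genes described here are 8 of the 26357 genes in the count table, taken by gene symbol: the ligand genes Il19, Il20 and Il24, the receptor chain genes Il20ra, Il22ra1, Il20rb and Il10rb, and the soluble receptor gene Il22ra2. The RNA came from mice treated with IL-23, a cytokine known for sustaining T cells that make IL-17, or with vehicle. By its title the study deals with psoriasiform dermatitis, a psoriasis-like inflammation of the skin. Every mouse also received a drug vehicle holding 0 mpk of compound, by mouth or into the peritoneum. The 4 groups were IL-23 with oral dosing (libraries 14, 24, 26 and 68), vehicle with oral dosing (libraries 4, 27, 33 and 51), IL-23 with intraperitoneal dosing (libraries 25, 28, 31 and 61) and vehicle with intraperitoneal dosing (libraries 49, 50, 59 and 67). The labels give no tissue, strain, sex, age or day of harvest, so the levels below are those of a whole, unnamed sample. Nothing in the labels says that libraries came from separate animals, so the p-values take account only of the spread among these libraries, part of which may be technical.

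IL-19, IL-20 and IL-24 are cytokines of the IL-10 family that act mainly on epithelial cells, keratinocytes among them. All of them bind the type I receptor, made of the chains IL-20RA and IL-20RB; IL-20 and IL-24 also bind the type II receptor, in which IL-22RA1 takes the place of IL-20RA. IL-22RA1 pairs with IL-10RB to form the receptor of IL-22, and IL-22RA2, the IL-22 binding protein, is secreted and keeps IL-22 from that receptor. These pairings were worked out largely with human proteins. The receptors signal through JAK kinases and chiefly STAT3, and in psoriasis this signalling is known for epidermal thickening and altered keratinocyte differentiation.

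Start-site sequences of 4 members are shown because they belong to neighbouring or paired genes that differed in response: Il19 and Il20, which lie side by side, and Il20ra and Il22ra1, whose products exchange places in the receptors. Each holds 250 bases before and 50 bases after the start given by RefSeq for GRCm38.p6, read 5′ to 3′ on the gene's own strand. Capitals mark letters that match a searched motif. The Il19 window is chr1:130940066-130940365 on the minus strand, from a start 5.34 kb inside the gene's annotated span. The Il20 window is chr1:130911247-130911546 on the minus strand. The Il20ra window is chr10:19712337-19712636 on the plus strand, from a start 0.914 kb inside the span, and the Il22ra1 window is chr4:135727909-135728208 on the plus strand.
Il19: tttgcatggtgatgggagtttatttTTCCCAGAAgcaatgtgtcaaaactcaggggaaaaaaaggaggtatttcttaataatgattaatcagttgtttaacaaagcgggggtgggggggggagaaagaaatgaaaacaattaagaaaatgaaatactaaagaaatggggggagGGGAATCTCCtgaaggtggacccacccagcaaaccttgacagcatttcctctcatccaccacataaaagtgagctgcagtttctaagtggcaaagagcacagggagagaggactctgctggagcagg
Il20: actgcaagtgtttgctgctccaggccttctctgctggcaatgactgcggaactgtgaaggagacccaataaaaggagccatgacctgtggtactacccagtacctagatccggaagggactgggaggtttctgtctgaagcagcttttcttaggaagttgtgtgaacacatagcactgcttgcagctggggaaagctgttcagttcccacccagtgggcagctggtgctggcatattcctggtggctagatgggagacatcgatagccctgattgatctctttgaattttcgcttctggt
Il20ra: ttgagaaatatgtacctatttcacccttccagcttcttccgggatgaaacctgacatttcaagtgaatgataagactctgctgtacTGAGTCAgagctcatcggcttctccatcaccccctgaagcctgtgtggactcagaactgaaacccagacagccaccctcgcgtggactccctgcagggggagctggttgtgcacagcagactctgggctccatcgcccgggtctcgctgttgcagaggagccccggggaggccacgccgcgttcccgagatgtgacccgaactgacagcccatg
Il22ra1: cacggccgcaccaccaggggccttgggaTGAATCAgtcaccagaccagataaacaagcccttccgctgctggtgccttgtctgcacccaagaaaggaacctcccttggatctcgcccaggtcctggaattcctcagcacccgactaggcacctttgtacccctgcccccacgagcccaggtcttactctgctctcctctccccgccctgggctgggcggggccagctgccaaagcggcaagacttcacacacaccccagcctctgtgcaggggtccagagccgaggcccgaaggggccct
The motifs searched on both strands were the STAT palindrome TTCNNNGAA, the AP-1 motif TGANTCA, the C/EBP motif TTGCNNAA and the kappaB consensus. In the Il19 window the STAT palindrome matched at bases -225 to -217 and the kappaB consensus at -77 to -68, counted from the start site. Of 32851 mouse start-site windows of the same length, 8.30% held the STAT palindrome and 4.505% the kappaB consensus. The Il20 window held none of these letters. The AP-1 motif, held by 7.81% of windows, matched at -164 to -158 in Il20ra, as TGAGTCA, and at -222 to -216 in Il22ra1, as TGAATCA. Of 5 members with a window, Il20rb was the other one; its only match was the C/EBP motif at -78 to -71 on the opposite strand, held by 10.8% of windows. No motif overlapped another. These matches describe letters and not binding.

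The depth was 6381990 to 10078531 counts per IL-23 library and 7159325 to 14432930 counts per vehicle library, and each library detected 17012 to 18287 genes. Library 28 of the IL-23 intraperitoneal group stood apart from the other 7 IL-23 libraries in its marker genes. Its summed level of 10 macrophage and monocyte genes was 1688 CPM (counts scaled to the library total times its TMM factor), against 347.8 to 701.2 CPM in the other 7, and that of 7 fibroblast genes was 5151 CPM against 991.0 to 1832 CPM. Its 11 basal keratinocyte genes summed to 24850 CPM against 28040 to 35810 CPM. Results that rest on this library are given with and without it.

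All 8 members passed the filter on low counts. Il19 and Il24, near 0 in vehicle mice, did so only through their IL-23 libraries, so their entry into the test was tied to their rise. In the oral groups, Il19, Il24, Il22ra1, Il10rb and Il22ra2 rose in IL-23 mice, Il20ra and Il20rb fell, and Il20 did not pass the test. The same genes passed in the same directions in the intraperitoneal groups. That is 7 of 8 members called in each route at an adjusted p of 0.05, by edgeR's quasi-likelihood test with Benjamini-Hochberg adjustment over 14671 genes. Among all genes tested, 63.3% were called in the oral groups, 29.2% higher and 34.0% lower, and 61.7% in the intraperitoneal groups, 30.8% higher and 30.9% lower. A count of 7 of 8 therefore stands beside a background in which most genes were called, and the sizes below say more than the count. Counts of listed genes below stand beside the same shares, unless another share is given. The members' median log2 fold change was 0.72 in the oral groups, where the median of all genes was -0.06, and 0.77 in the intraperitoneal groups, where it was -0.02. With no count filter the 8 members gave 5 higher, 2 lower and 1 not called in each route. Among all 20799 genes tested that way, 21.5% rose in the oral and 22.6% in the intraperitoneal groups. Levels of IL-23 and vehicle mice did not overlap for 7 members in the oral groups, as for 27.9% of all genes upwards and 31.8% downwards. They did not overlap for 5 members in the intraperitoneal groups, as for 25.1% of all genes upwards and 25.9% downwards. In whole samples, fewer cells of a type and less RNA per cell cannot be told apart, which holds for every level below.

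**Figure D1:**
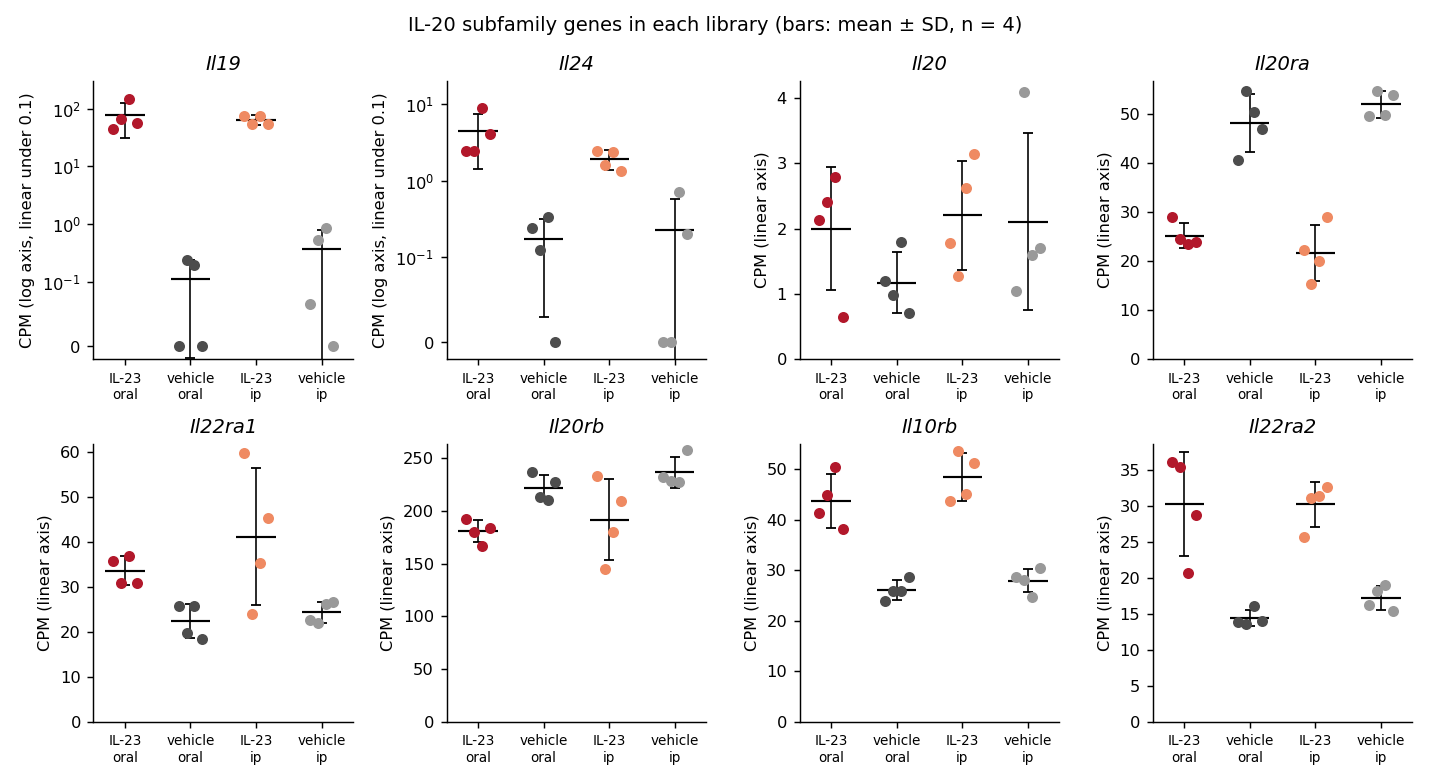
Level of each IL-20 subfamily gene in every library, in CPM on a linear axis except for Il19 and Il24 (log axis, linear under 0.1); points are libraries, bars the mean ± SD of 4, clipped where they run below the axis, and ip is intraperitoneal. Il19 stands at 43.7 CPM or more in all 8 IL-23 libraries and at 0.874 CPM or less in all 8 vehicle libraries, while Il20ra stands lower in every IL-23 library than in any vehicle library.

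Il19 encodes the ligand that binds the type I receptor alone. It went with the largest change of any member in both routes. Its level in IL-23 oral mice was 43.7, 64.9, 145.8 and 56.3 CPM, against 0, 0.244, 0.200 and 0 CPM in vehicle oral mice. All 4 IL-23 libraries lay far above every vehicle library, with library 26 the highest, and the vehicle group held 5 counts of Il19 in all. The fitted log2 fold change was 9.31 ± 0.62 (SE; edgeR adjusted p = 7e-09). The ratio of summed counts was 715.5-fold, with a 95% exact binomial interval of 306.2 to 2206 that covers counting error only. Without vehicle library 33, which held 3 of the 5 counts, it was 1201-fold with an interval of 332.1 to 9922.

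In IL-23 intraperitoneal mice Il19 stood at 75.7, 53.8, 73.5 and 53.6 CPM, against 0.0654, 0.528, 0.874 and 0 CPM in vehicle intraperitoneal mice. The IL-23 libraries lay within a narrow range, again well above every vehicle library. The fitted log2 fold change was 7.45 ± 0.54 (edgeR adjusted p = 1.88e-08). Summed counts gave 1874 in IL-23 mice and 16 in vehicle mice, a ratio of 181.8 with an interval of 111.7 to 318.8. Vehicle library 59 held 11 of those 16 counts, and without it the ratio was 420.7 with an interval of 180.0 to 1297.

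Il24, whose product uses both receptor types, was far less abundant than Il19 but also rose in both routes. It stood at 2.46, 2.42, 8.88 and 4.04 CPM in IL-23 oral mice, against 0.239, 0.122, 0.333 and 0 CPM in vehicle oral mice. Library 26, the highest for Il19, was the highest for Il24 too, and the groups did not overlap. Its fitted log2 fold change was 4.44 ± 0.70 (edgeR adjusted p = 3.59e-05), and summed counts of 143 in IL-23 mice and 9 in vehicle mice gave a ratio of 22.9 (95% exact binomial interval 11.7 to 51.1). Without vehicle library 33 this ratio was 34.6 (13.2 to 128.8).

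With intraperitoneal dosing Il24 stood at 2.43, 1.62, 2.38 and 1.33 CPM in IL-23 mice, against 0, 0, 0.715 and 0.200 CPM in vehicle mice. No vehicle library reached the lowest IL-23 library, though library 59 came to 0.715 CPM. The fit gave a log2 fold change of 2.94 ± 0.74 (edgeR adjusted p = 0.00244), and the ratio of 57 counts in IL-23 mice to 11 in vehicle mice was 8.05 after scaling (4.18 to 17.0). Of the 11 vehicle counts 9 were in library 59, and without it the ratio was 32.0 (8.46 to 270.5) and the fitted log2 fold change 4.71. The size of the intraperitoneal change in Il24 thus rested on 1 vehicle library, while its call held with each library left out in turn.

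Il20, the third ligand gene, did not pass the test in either route. Its level was 2.13, 2.42, 2.79 and 0.638 CPM in IL-23 oral mice, against 1.19, 0.9745, 1.80 and 0.710 CPM in vehicle oral mice. Of the IL-23 libraries 3 lay above every vehicle library and library 68 lay below all of them. Its log2 fold change was 0.70 ± 0.48 (edgeR adjusted p = 0.215), with a 95% interval of -0.35 to 1.74. In IL-23 intraperitoneal mice Il20 stood at 1.78, 1.27, 2.62 and 3.15 CPM, against 1.05, 4.09, 1.59 and 1.70 CPM in vehicle intraperitoneal mice, where library 50 was the highest of all 8. There the log2 fold change was 0.12 ± 0.46 (edgeR adjusted p = 0.83), with an interval of -0.88 to 1.13. A change of Il20 as large as the fitted one of Il19 or Il24 lies outside both intervals, while a change of up to 1.74 in the oral groups does not. Il20 counts ran from 6 to 31 per library, which limits this comparison.

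The makeup of the ligand transcripts turned over with these changes. Il19 held 90.5 to 93.1% of the counts of the 3 ligand genes in IL-23 oral mice, against 0 to 18.2% in vehicle oral mice, and 92.3 to 94.9% in IL-23 intraperitoneal mice, against 0 to 27.5% in vehicle intraperitoneal mice. Il20 was the main ligand transcript of vehicle mice. It held 1.05 to 4.42% of ligand counts in IL-23 oral mice, against 72.7 to 100% in vehicle oral mice, and 2.23 to 5.43% in IL-23 intraperitoneal mice, against 50.0 to 94.1% in vehicle intraperitoneal mice. The summed level of the 3 genes was 48.3 to 157.5 CPM in IL-23 oral mice, against 0.710 to 2.33 CPM in vehicle oral mice. In the intraperitoneal groups it was 56.6 to 79.9 CPM in IL-23 mice and 1.11 to 4.62 CPM in vehicle mice. Shares in vehicle mice rest on few counts, since the groups held 5 and 16 counts of Il19 and 57 and 84 of Il20.

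Keratinocytes and monocytes are both known sources of Il19 and Il24. Of 10 macrophage and monocyte genes tested, 5 rose in the oral groups (29.2% of all genes) and 6 in the intraperitoneal groups (30.8%). None of the 10 fell (34.0% and 30.9% of all genes). Without library 28 the oral count was unchanged, and in the intraperitoneal groups 6 rose and 1 fell, which was the lysozyme gene Lyz2 (log2 fold change -0.94 ± 0.27, edgeR adjusted p = 0.00576). The summed level of the 10 genes was 369.3 to 701.2 CPM in IL-23 oral mice, against 232.8 to 441.3 CPM in vehicle oral mice, and 347.8 to 1688 CPM in IL-23 intraperitoneal mice, against 345.0 to 440.8 CPM in vehicle intraperitoneal mice. No gene of that list was at 0 in a group. Library 28, which had the highest of these sums, had 53.8 CPM of Il19 and 1.62 CPM of Il24, each within the range of the other 3 libraries of its group. The part of these cells in the ligand changes was not tested.

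**Figure D2:**
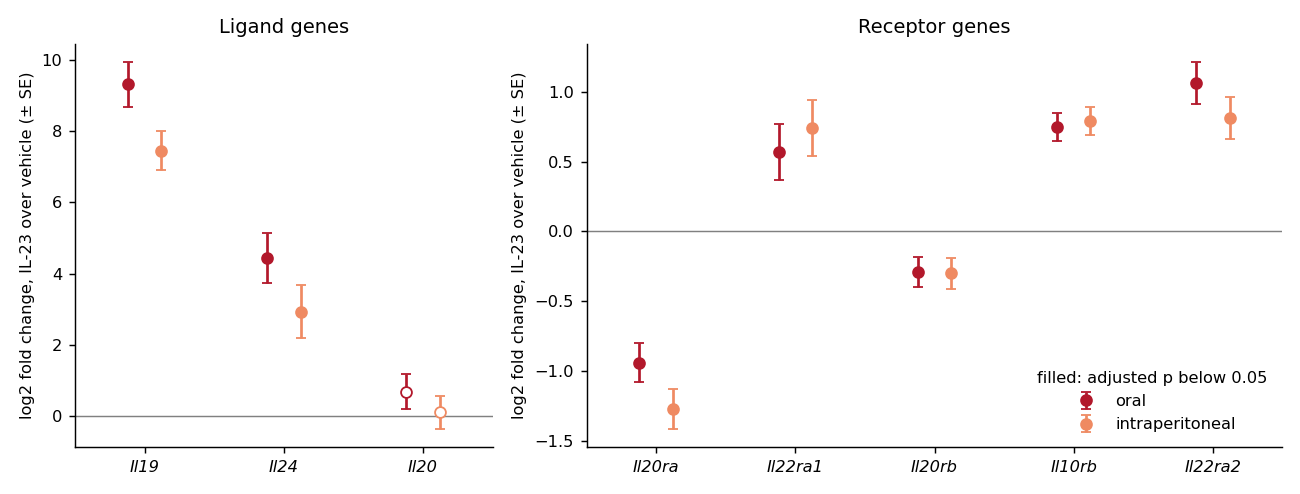
Fitted log2 fold change of IL-23 over vehicle for each member (± SE), in the oral groups (dark) and the intraperitoneal groups (light), with ligand genes on the left panel and receptor genes on the right panel, which has its own axis. Filled points passed an adjusted p of 0.05: Il19 and Il24 stand high above 0, Il20 is open in both routes, and among the receptor genes Il20ra and Il20rb stand below 0.

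Il20ra encodes the alpha chain that only the type I receptor uses, and it fell in both routes. Its level in IL-23 oral mice was 28.9, 24.4, 23.4 and 23.9 CPM, against 40.5, 54.7, 50.3 and 47.0 CPM in vehicle oral mice. The highest IL-23 library stayed below the lowest vehicle library. Il20ra had a log2 fold change of -0.94 ± 0.14 (edgeR adjusted p = 2.23e-05), that is 1.92-fold lower in IL-23 mice. With intraperitoneal dosing it stood at 22.2, 15.3, 19.97 and 29.0 CPM in IL-23 mice, against 49.5, 54.6, 49.7 and 53.8 CPM in vehicle mice. Here too the groups did not overlap, and library 28 was the lowest. Its log2 fold change was -1.27 ± 0.14 (edgeR adjusted p = 1.47e-06), and -1.12 ± 0.12 without library 28.

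Il22ra1 encodes the alpha chain shared by the type II receptor and the IL-22 receptor, and it rose. It stood at 35.8, 30.8, 36.9 and 30.8 CPM in IL-23 oral mice, against 25.7, 19.9, 25.8 and 18.4 CPM in vehicle oral mice. The groups did not overlap, and libraries 4 and 33 came nearest to the IL-23 group. The log2 fold change was 0.57 ± 0.20 (edgeR adjusted p = 0.0197). This call was lost without IL-23 library 26 (adjusted p = 0.0521), without vehicle library 27 (0.0518) or without vehicle library 51 (0.0516), and with plain library sizes as the scale, where the log2 fold change was 0.38 (adjusted p = 0.07).

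In IL-23 intraperitoneal mice Il22ra1 stood at 59.8, 23.9, 35.4 and 45.4 CPM, against 22.6, 22.0, 26.2 and 26.6 CPM in vehicle intraperitoneal mice. Library 28, at 23.9 CPM, lay within the vehicle range and the other 3 IL-23 libraries lay above it. With all 4 libraries the log2 fold change was 0.74 ± 0.20 (edgeR adjusted p = 0.00405), and 0.95 ± 0.15 without library 28 (edgeR adjusted p = 4.6e-05).

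Il20rb encodes the beta chain of both the type I and the type II receptor and was the most abundant receptor gene here. It stood at 192.0, 180.4, 167.2 and 184.1 CPM in IL-23 oral mice, against 236.7, 213.1, 210.5 and 227.4 CPM in vehicle oral mice. The groups did not overlap, yet the change was small, with a log2 fold change of -0.29 ± 0.11 (edgeR adjusted p = 0.0261), 1.23-fold lower in IL-23 mice. The call was lost with RLE factors (-0.25, adjusted p = 0.0599), in DESeq2 (-0.25, adjusted p = 0.0523), and on leaving out library 24 (adjusted p = 0.0506) or 26 (0.0789) of the IL-23 group or library 4 (0.0706) or 51 (0.0776) of the vehicle group. Intraperitoneal levels were 233.3, 144.8, 180.0 and 209.3 CPM in IL-23 mice, against 231.9, 228.3, 227.9 and 258.1 CPM in vehicle mice. Library 25 lay inside the vehicle range and library 28 was the lowest. The log2 fold change was -0.30 ± 0.11 (edgeR adjusted p = 0.023). Without library 28 it was -0.17 (adjusted p = 0.103) and the call was lost, as it was without IL-23 library 31 (adjusted p = 0.064) or vehicle library 67 (0.0725), or with only the 2 groups compared in the fit (-0.31, adjusted p = 0.0717). Without library 28 the intraperitoneal count of members was 5 higher, 1 lower and 2 not called.

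Il10rb encodes the beta chain that completes the IL-22 receptor and serves IL-10 and the interferon lambdas as well. It stood at 41.2, 44.9, 50.4 and 38.2 CPM in IL-23 oral mice, against 23.9, 26.0, 25.8 and 28.7 CPM in vehicle oral mice, and the groups were well apart. The log2 fold change was 0.75 ± 0.10 (edgeR adjusted p = 8.16e-06). Intraperitoneal levels were 43.6, 53.5, 45.1 and 51.2 CPM in IL-23 mice, against 28.6, 28.0, 24.8 and 30.4 CPM in vehicle mice. All IL-23 libraries lay above all vehicle libraries, with library 28 the highest. Il10rb had a log2 fold change of 0.79 ± 0.10 (edgeR adjusted p = 4.98e-06), and 0.76 ± 0.10 without library 28.

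Il22ra2 encodes the secreted IL-22 binding protein, which dendritic cells are known to make. Its level was 36.1, 35.4, 20.7 and 28.7 CPM in IL-23 oral mice, against 13.8, 13.6, 16.1 and 14.0 CPM in vehicle oral mice. The groups did not overlap, and library 26, the highest for Il19 and Il24, was the lowest of the IL-23 group. The log2 fold change was 1.06 ± 0.15 (edgeR adjusted p = 1.07e-05), the largest rise among the receptor genes in the oral groups. In IL-23 intraperitoneal mice it stood at 25.6, 31.2, 31.4 and 32.7 CPM, against 16.3, 18.2, 19.1 and 15.4 CPM in vehicle intraperitoneal mice, again without overlap. The log2 fold change was 0.81 ± 0.15 (edgeR adjusted p = 0.000162). Of 8 dendritic and Langerhans cell genes tested, 4 rose in the oral groups (29.2% of all genes) and 3 in the intraperitoneal groups (30.8%). The intraperitoneal count was thus near the share of all genes. None of the 8 fell (34.0% and 30.9% of all genes). The summed level of the 9 listed genes was 55.3 to 79.0 CPM in IL-23 oral mice, against 39.7 to 55.7 CPM in vehicle oral mice, and 54.8 to 73.9 CPM in IL-23 intraperitoneal mice, against 42.3 to 57.4 CPM in vehicle intraperitoneal mice. None of the 9 was at 0 in a whole group, and their part in the rise of Il22ra2 was not tested.

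Keratinocyte genes changed as well, those of the basal list in both directions. The 11 basal keratinocyte genes summed to 30440 to 35480 CPM in IL-23 oral mice, against 22670 to 28750 CPM in vehicle oral mice, and to 24850 to 35810 CPM in IL-23 intraperitoneal mice, against 22550 to 25960 CPM in vehicle intraperitoneal mice. Of the 11, 3 rose and 6 fell in the oral groups, and 4 rose and 5 fell in the intraperitoneal groups. Without library 28, 5 rose and 6 fell in each route. The 7 suprabasal keratinocyte genes summed to 24590 to 29500 CPM in IL-23 oral mice, against 7105 to 10670 CPM in vehicle oral mice. Their intraperitoneal sums were 18830 to 43440 CPM in IL-23 mice and 9516 to 11590 CPM in vehicle mice. Of the 7, 5 rose in each route. No gene of either list was at 0 in a group. Most of the basal sum came from Krt14 and Krt5. In the oral groups Krt14 averaged 14300 CPM in IL-23 and 7295 CPM in vehicle mice, and Krt5 11060 and 9154 CPM. The list's median log2 fold change was -0.40 in the oral and -0.16 in the intraperitoneal groups, so the sum does not stand for all its genes. When receptor genes were scaled to the basal keratinocyte sum instead of the whole library, Il20ra fell by 1.25 in the oral and by 1.59 in the intraperitoneal groups on the log2 scale. Il20rb fell by 0.62 in each. The exact 2-sided permutation p was 0.0286 for these 4 values, the smallest that 4 against 4 libraries allow. On that scale Il22ra1, Il10rb and Il22ra2 kept their positive sign, at 0.27, 0.42 and 0.72 in the oral and 0.39, 0.50 and 0.51 in the intraperitoneal groups, with exact permutation p-values from 0.0571 to 0.114.

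**Figure D3:**
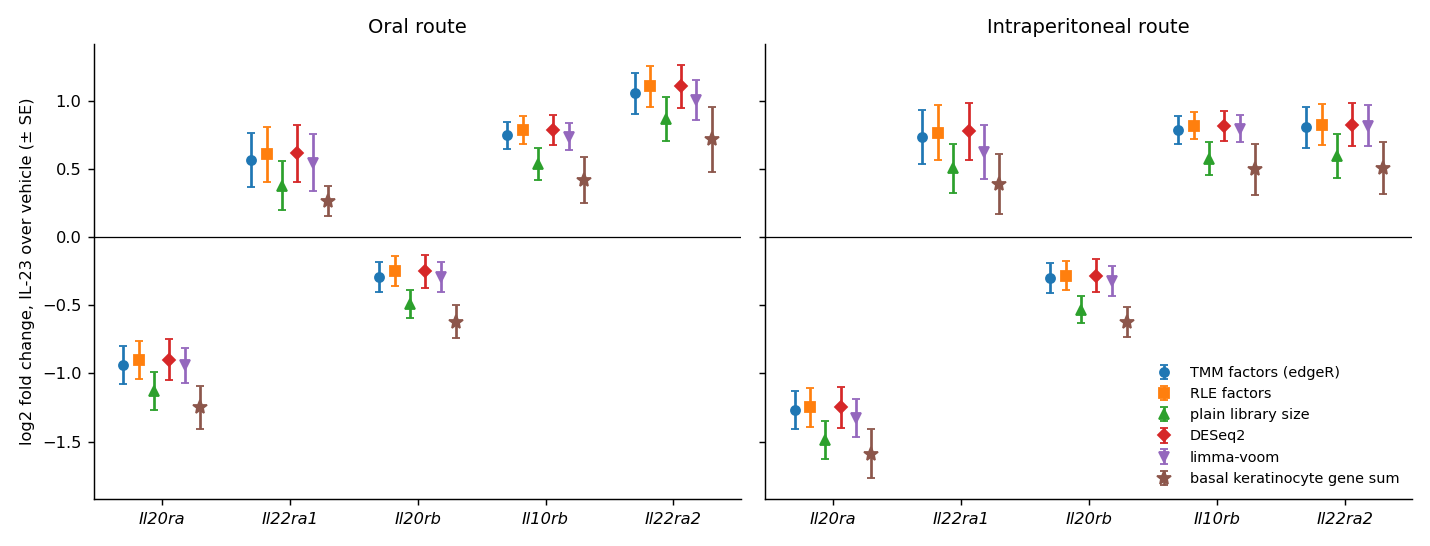
Log2 fold change of IL-23 over vehicle (± SE) of the 5 receptor genes under 6 ways of scaling or testing, in the oral groups on the left and the intraperitoneal groups on the right. No receptor gene changes sign between them; Il20ra lies at -0.90 or lower in all of them and the rises shrink when the basal keratinocyte gene sum is the scale.

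Per kilobase of exon, the order of the genes differed between IL-23 and vehicle mice. Il19 ranked first in IL-23 mice, at 67.6 ± 40.3 CPM per kb in the oral and 55.8 ± 10.6 in the intraperitoneal group (SD, n = 4 each), and last or next to last in vehicle mice, at 0.0965 ± 0.113 and 0.319 ± 0.358. Il20rb followed in IL-23 mice at 43.0 ± 2.45 and 45.6 ± 9.09 CPM per kb, and its range overlapped that of Il19 in both groups. It was first in vehicle mice at 52.8 ± 2.94 and 56.2 ± 3.44. In IL-23 oral mice Il22ra1 (13.1 ± 1.26), Il22ra2 (12.1 ± 2.88), Il10rb (11.5 ± 1.38) and Il20ra (10.4 ± 1.05) came next, each within the spread of its neighbours. In IL-23 intraperitoneal mice Il22ra1 (16.01 ± 5.94), Il10rb (12.7 ± 1.25), Il22ra2 (12.1 ± 1.25) and Il20ra (8.91 ± 2.34) again overlapped with their neighbours in that order. In vehicle mice Il20ra stood second, at 19.8 ± 2.47 in the oral and 21.4 ± 1.11 in the intraperitoneal group, clear of Il22ra1 at 8.73 ± 1.51 and 9.49 ± 0.924. Il10rb (6.85 ± 0.523 and 7.34 ± 0.617) and Il22ra2 (5.76 ± 0.452 and 6.90 ± 0.674) came after it, and Il20 (0.986 ± 0.392 and 1.78 ± 1.14) and Il24 (0.125 ± 0.104 and 0.165 ± 0.244) were low.

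The balance of the alternative alpha chains, taken within each library per kilobase, therefore turned over. Il22ra1 over Il20ra was 1.17 to 1.495 in IL-23 oral mice, against 0.343 to 0.600 in vehicle oral mice, and 1.47 to 2.55 in IL-23 intraperitoneal mice, against 0.381 to 0.498 in vehicle intraperitoneal mice. Every IL-23 library stood above 1 and every vehicle library below it, library 28 included. Il20ra over Il20rb, the chains of the type I receptor, was 0.225 to 0.261 in IL-23 oral mice, against 0.296 to 0.445 in vehicle oral mice. In the intraperitoneal groups it was 0.165 to 0.240 in IL-23 mice and 0.361 to 0.415 in vehicle mice. Il22ra1 over its soluble competitor Il22ra2 overlapped between groups, at 0.846 to 1.74 in IL-23 oral mice, against 1.28 to 1.81 in vehicle oral mice, and 0.746 to 2.27 in IL-23 intraperitoneal mice, against 1.18 to 1.68 in vehicle intraperitoneal mice. Il22ra1 over Il10rb overlapped in both routes too. These ratios are of transcripts, chosen with the gene changes known, and are given without a test.

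**Figure D4:**
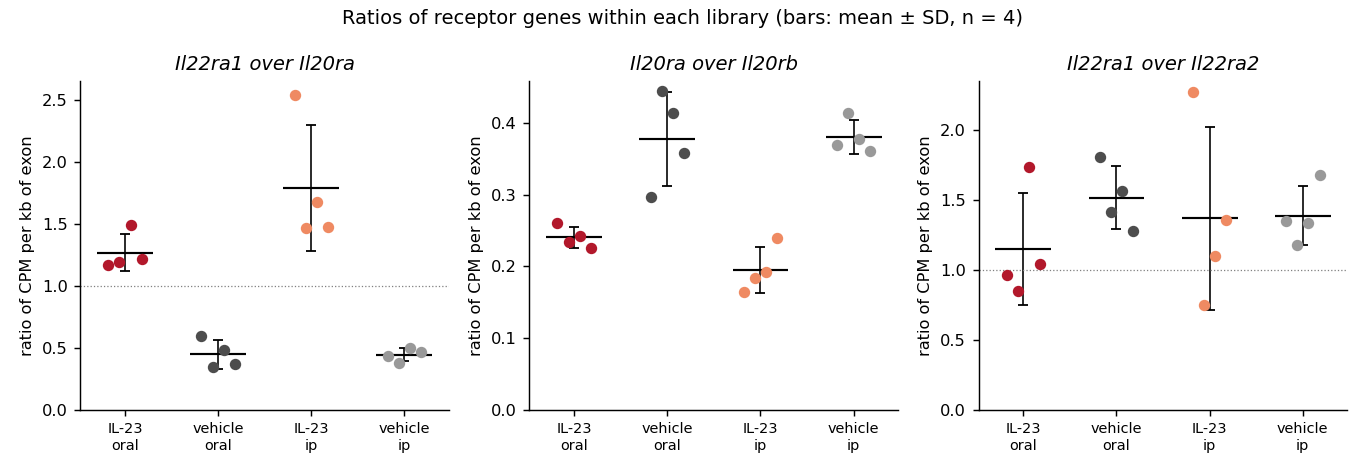
Ratio of CPM per kilobase of exon between pairs of receptor genes in every library; points are libraries, bars the mean ± SD of 4, and the dotted line marks equal levels. Il22ra1 over Il20ra averages 1.27 and 1.79 in the IL-23 groups (oral and intraperitoneal) and 0.449 and 0.445 in the vehicle groups, with no overlap, whereas Il22ra1 over Il22ra2 overlaps.

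The IL-23 effect on the members was not shown to differ between dosing routes. None of the 8 members, and 0 of 14671 genes, passed edgeR's test of the difference (796 genes had an unadjusted p below 0.05; DESeq2 called 1 gene and limma-voom 0). The intraperitoneal minus the oral effect was -1.86 for Il19 (95% interval -5.07 to 1.35), -0.57 for Il20 (-2.02 to 0.87) and -1.5 for Il24 (-4.05 to 1.05) on the log2 scale. For the ligand genes, differences of several fold therefore lie within the intervals. These intervals are rough: the SE was 1.47 for the Il19 difference, against 0.62 and 0.54 for its oral and intraperitoneal effects. The intervals were narrower for the receptor genes. The difference was -0.34 for Il20ra (-0.77 to 0.10), 0.17 for Il22ra1 (-0.45 to 0.79), -0.01 for Il20rb (-0.35 to 0.33), 0.05 for Il10rb (-0.26 to 0.36) and -0.25 for Il22ra2 (-0.70 to 0.20). Adjusted p-values for the members ran from 0.875 to 0.996.

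Il24, Il20 and Il19 lie next to one another on the minus strand of chromosome 1 (GRCm38.p6), at 130882074 to 130887411, 130906985 to 130911296 and 130932656 to 130945457. Il20 thus sits between genes that rose, 19.6 kb from Il24 and 21.4 kb from Il19, and did not pass the test. Beyond Il19 lies Il10, the founding cytokine of the family, which had too few counts for the filter. In the fit without a filter Il10 had a log2 fold change of 2.69 ± 0.88 in the oral (edgeR adjusted p = 0.0163) and 2.15 ± 0.80 in the intraperitoneal groups (adjusted p = 0.034), at means of 1.02 and 1.22 CPM in IL-23 mice and 0.159 and 0.309 CPM in vehicle mice. Further on, Mapkapk2, a kinase downstream of p38, rose by 0.46 and 0.55, and Dyrk3, another kinase gene, by 1.25 and 1.22 in the oral and intraperitoneal groups. On the other side Fcmr and Pigr, receptor genes for immunoglobulins, were under the filter, and Fcamr, another of that kind, did not pass the test (-0.12 and 0.24).

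The receptor genes lie among relatives of their own kind. On chromosome 10, Il22ra2 (19622028 to 19634681) rose and Il20ra (19711673 to 19760053), 77.0 kb away on the same strand, fell. On the other side of Il22ra2, Ifngr1, the ligand-binding chain of the interferon gamma receptor, rose by 1.05 and 1.07 in the oral and intraperitoneal groups. On chromosome 16, Il10rb (91406157 to 91425834) stood among genes of interferon receptors. Ifnar2, a chain of the type I interferon receptor, ends 0.568 kb from it; its log2 fold change was 0.15 in the oral groups, which did not pass, and 0.54 in the intraperitoneal groups, which did. Ifnar1, the other chain, passed in neither, at -0.29 and 0.07, and Ifngr2 rose by 0.95 and 0.98. Il22ra1 lies on chromosome 4 (135728159 to 135755383) between Ifnlr1, the interferon lambda receptor chain, which passed in neither route (0.19 and -0.17), and Myom3, a muscle sarcomere gene that fell by 1.40 and by 1.07. All 10 skeletal muscle genes listed fell in both routes. Il20rb (chromosome 9, 100457719 to 100486473) has Nck1, an adaptor gene, 7.83 kb away, which passed in neither (0.07 and -0.02).

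**Figure D5:**
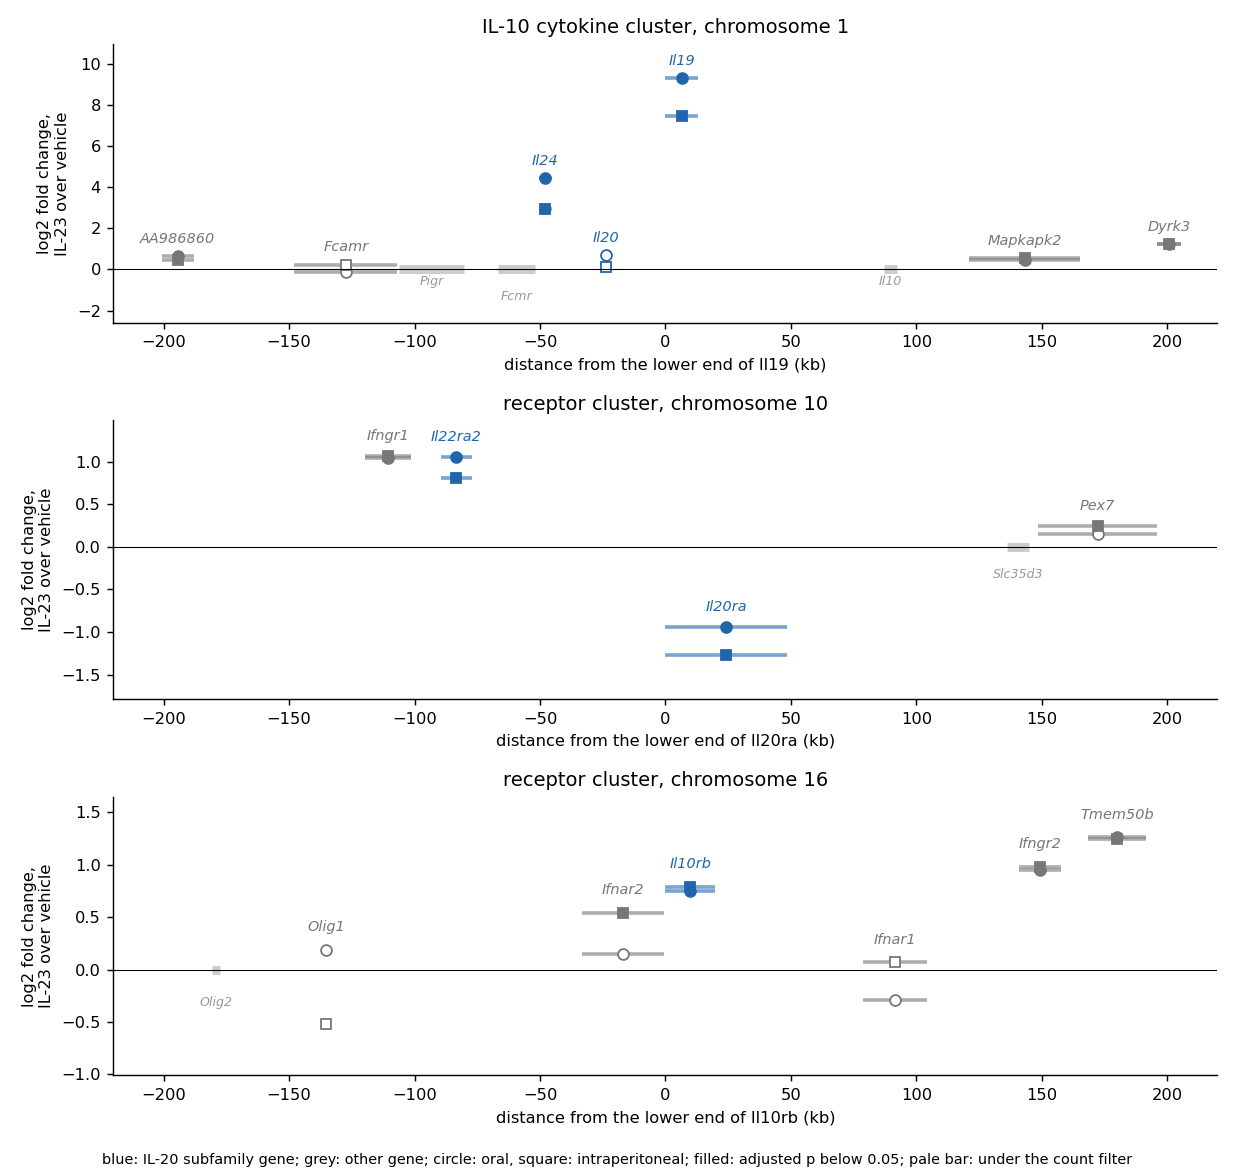
Fitted log2 fold change of IL-23 over vehicle for genes around Il19, Il20ra and Il10rb, plotted by distance in kb from the lower end of that gene; the length of each bar is the gene's span, circles are oral and squares intraperitoneal. Il20 stands near 0 between Il24 and Il19, and Il20ra stands below 0 beside Il22ra2 and Ifngr1, which stand above it.

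Other genes of the IL-10 family and its receptors were compared as a list of 12, of which 8 were tested. In the oral groups 4 rose, 1 fell and 3 did not pass; in the intraperitoneal groups 5 rose, 1 fell and 2 did not pass. The list's median log2 fold change was 0.57 and 0.76, beside -0.06 and -0.02 for all genes. Il22, near 0 in vehicle mice, passed the count filter only through its IL-23 libraries and is among these rises. With no count filter 10 of the 12 were tested. Of these, 6 rose and 1 fell in the oral groups, and 7 rose and 1 fell in the intraperitoneal groups. Among all genes tested that way, 21.5% and 22.6% rose. Il22, the ligand for Il22ra1 with Il10rb, had 239 counts in IL-23 oral mice and 0 in vehicle oral mice, at least 114.9-fold higher, taking 3 counts for the whole vehicle group as the floor. In the intraperitoneal groups it had 261 counts in IL-23 mice and 1 in vehicle mice, a ratio of 405.2 (95% exact binomial interval 72.1 to 16070). Without library 28 the IL-23 count was 133 and the ratio 293.3 (51.75 to 11670). With vehicle library 67 left out, the vehicle group had 0 counts and the ratio was at least 105.4-fold. Its near-identical copy Iltifb may share these reads, so Il22 alone is uncertain. Il10ra, the other chain of the IL-10 receptor, rose by 1.07 and 1.33. F3, the tissue factor gene, whose product shares the fold of this receptor class, fell by 0.58 and by 0.45. Without library 28 the intraperitoneal count among the 8 genes that passed the filter was 5 higher and 0 lower. Ifnl2 and Ifnl3 had no count.

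The JAK-STAT list holds the kinases, STAT factors and inhibitors that these receptors engage, and its 21 genes were all tested. In the oral groups 7 rose, 5 fell and 9 did not pass, where 29.2% of all genes rose and 34.0% fell. In the intraperitoneal groups 11 rose, 4 fell and 6 did not pass, where 30.8% of all genes rose and 30.9% fell. The medians of this mixed list were 0.10 and 0.32. Stat3, the main STAT of this family, rose by 1.30 ± 0.09 and 1.41 ± 0.09 in the oral and intraperitoneal groups. The feedback inhibitor genes moved most: Socs3 rose by 2.24 ± 0.21 and 2.05 ± 0.21, and Socs1 by 2.17 ± 0.19 and 1.67 ± 0.19. Cish, of the same inhibitor family, rose by 1.30 and 0.68. Tyk2, a kinase that IL-10RB is known to bind, fell by 0.58 and by 0.62, while Jak1, the kinase of the alpha chains, had 0.08, which did not pass, and 0.29, which did. Without library 28 the list's count was 9 higher and 6 lower in each route. With plain library sizes as the scale it was 5 higher and 7 lower in the oral and 5 higher and 6 lower in the intraperitoneal groups.

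Genes that keratinocytes are known to change when given IL-19, IL-20, IL-22 or IL-24 in culture formed a list of 28, of which 27 were tested. In the oral groups 24 rose, 1 fell and 2 did not pass, and in the intraperitoneal groups 24 rose and 3 did not pass. The medians were 3.81 and 3.95. The alarmin genes S100a8 and S100a9 were the most changed with the defensin gene Defb3. S100a8 averaged 10880 ± 2216 CPM in IL-23 oral mice and 31.99 ± 15.8 CPM in vehicle oral mice (SD, n = 4 each), and its log2 fold change was 8.41 ± 0.42. S100a9 had 8.22 ± 0.42 and 8.69 ± 0.43 in the oral and intraperitoneal groups, and Defb3 7.98 ± 0.41 and 8.41 ± 0.46. S100a7a rose by 5.58 and 6.75 and Defb4 by 4.65 and 7.03; reads of defensin copies may be shared. S100a8 and S100a9 are also neutrophil genes. Of 9 neutrophil markers that leave them out, 5 were tested and 4 rose in each route, with 5 in the oral groups when library 28 was left out. A marker low in vehicle mice passes the count filter only if it is high in IL-23 mice. With no filter 4 of the 9 rose in the oral groups (21.5% of all genes) and 5 in the intraperitoneal groups (22.6%), where 1 fell. The sum of all 9 was 36.2 to 106.6 CPM in IL-23 oral mice, against 2.33 to 8.04 CPM in vehicle oral mice, and 33.4 to 75.2 CPM in IL-23 intraperitoneal mice, against 2.49 to 7.92 CPM in vehicle intraperitoneal mice. Elane was at 0 in both IL-23 groups, Ly6g in vehicle oral mice and Ngp in vehicle intraperitoneal mice, and the part of neutrophils in the list was not tested. Lor and Flg, late differentiation genes that IL-22 and IL-20 are known to lower in cultured human keratinocytes, did not pass in either route. Their log2 fold changes were -0.08 and -0.49 for Lor and -0.22 and -0.43 for Flg. The list takes genes known to change in either direction, so its count of rises does not measure how far the culture response was matched. The differentiation genes Krt1, Krt10 and Ivl of the same list rose in both routes and are among the 24. Krt1 rose by 3.22 in the oral and 3.68 in the intraperitoneal groups, Krt10 by 1.04 and 1.08 and Ivl by 1.61 and 1.16. Mmp3, a matrix protease gene, fell by 1.26 in the oral groups and did not pass in the intraperitoneal groups (-0.09). Without library 28 Mmp3 fell in the intraperitoneal groups too (log2 fold change -0.84 ± 0.18, edgeR adjusted p = 0.000492). Many of these genes also answer to IL-17, IL-1 and TNF, so the list is not particular to the IL-20 subfamily.

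Cytokine genes whose products are known to raise IL-19, IL-20 or IL-24 were taken as a list of 17. Of these 11 passed the count filter, which a gene low in vehicle mice passes only if it is high in IL-23 mice, so the count is given with no filter. Of 16 list genes then tested, 14 rose in the oral and 15 in the intraperitoneal groups and none fell, beside 21.5% and 22.6% of all 20799 genes tested that way that rose. Il17f rose by 7.74 ± 0.66 in the oral and 5.83 ± 0.51 in the intraperitoneal groups, and Il17c, an epithelial member of that family, by 5.04 and 3.69. Il1b rose by 3.20 and 4.05, and Il1f6, which encodes IL-36 alpha, by 4.46 and 3.72. Il6 rose by 3.71 ± 0.78 in the oral and 6.53 ± 1.05 in the intraperitoneal groups. Vehicle intraperitoneal mice held 1 count of Il6 in all, and vehicle oral mice 1 count of Il17f, so the sizes of those changes are imprecise. Without library 28 the intraperitoneal count was 24 higher and 1 lower in the keratinocyte list and, among the cytokine genes that passed the filter, 11 higher.

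Likeness between genes was measured as Pearson's r of log2 CPM deviations from the 4 group means over 16 libraries, which share library-wide differences such as the makeup of the sample, and is given as a description. Il22ra1 was most like Ccdc64b (0.95), Ankrd35 (0.94) and Slc28a3 (0.94), and Il20rb most like Ccr4 (0.95), Arhgap23 (0.92) and Letmd1 (0.92). Il20ra was most like Rgn (0.91), Hbp1 (0.89) and Jmy (0.89). Of the ligand genes, Il19 was most like Ndufc1 (0.88), Sugt1 (0.86) and Cd44 (0.84), Il20 most like Mansc1 (0.93), Naa25 (0.90) and Tac4 (0.90), and Il24 most like Cemip, Med1 and Sh2d5 (0.86 each). Il10rb was most like I830077J02Rik (0.86), Cd300ld (0.85) and Rsad2 (0.83), and Il22ra2 most like Tmem131 (0.87), Ror1 (0.87) and Serpinb1c (0.84). Of these 24 genes 14 were again among the nearest 3 without library 28, and 12 without library 14 of the IL-23 oral group. Library 14 stood apart from its group on the second principal component, at 17.36 against 4.196 to 6.258 in the other 3 libraries. It was not the extreme of that component, on which library 28 stood at -62.51 and library 25 at 20.87. Between members the highest value was 0.80 for Il22ra1 with Il20rb, which was 0.55 without library 28. Il20ra with Il20rb had 0.60, and 0.16 without library 28. Il19 with Il24 had 0.58 with and without that library.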

How the data were processed

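Per the labels' protocols, stranded total RNA libraries (TruSeq) were run on an Illumina HiSeq. The submitters' processing notes name build GRCm38, FastQC, STAR, featureCounts and Subread 1.5.0. Sources used here do not give the annotation release, the strand setting or the treatment of multiply mapped reads. What the authors deposited is a table of unscaled counts per gene, whole numbers with unequal sums.

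From these, edgeR 4.0.16 (R 4.3.3) fitted the 4 group means with TMM factors after filterByExpr (minimum count 10), which kept 14671 genes, with Benjamini-Hochberg adjustment over all of them. SE is the size of the log2 fold change divided by the root of the F statistic. The 95% intervals of log2 fold changes take this SE and a t value at 12 degrees of freedom, and are approximate. CPM use TMM factors; per kilobase values use GENCODE M21 exons. Ratios of summed counts carry 95% exact binomial intervals; these and the floor of 3 counts cover counting error only, as reads carry no molecular identifiers. The 24 replicate pairs all differed beyond counting noise (chi-square per degree of freedom 5.486 to 47.15).

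Alternatives were RLE factors, plain library size, no filter, 1 CPM in 4 libraries, DESeq2 1.42.0, limma-voom (limma 3.58.1), only the groups compared, each library left out, and the basal keratinocyte sum as scale. Summed count ratios and likeness without library 28 were added after seeing the data. The members and gene lists were chosen with earlier results of these data known, so no p-value is given for a list. Named genes are the 8 members, the nearest 3 protein-coding genes on each side of a member, the 3 genes most like each member, and up to 4 called genes with the largest change of the relatives, JAK-STAT, keratinocyte response and cytokine lists; others of these lists were named after their values were seen. A gene that this rule names is not reported here. The fit was tested on simulated data.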

Additional observations from a re-analysis of the deposited data

Results flagged for a closer look

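Among 32 sets of 4 libraries (8 members in 4 groups), 2 held a library far from the other 3, by Dixon's test for an outlying value; chance gives about 1 in 20. Il20rb stood at 258.1 CPM in vehicle intraperitoneal library 67, against 227.9 to 231.9 CPM in the other 3 of its group. Without library 67 the intraperitoneal call of Il20rb was lost (edgeR adjusted p = 0.0725). Il22ra2 stood at 16.07 CPM in vehicle oral library 33, against 13.64 to 14.0 CPM in the others, and still lay below every IL-23 library.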

How the results depend on the processing

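No paired analysis was possible because no replicate number is shared between groups. The counts of called genes ran from 8457 to 9768 (oral), 8310 to 9092 (intraperitoneal) and 0 to 0 (difference between routes) with each library left out. DESeq2 called 1 gene for the difference. Plain library size shifted the median of all genes by -0.20 (oral) and -0.21 (intraperitoneal) on the log2 scale, so that 2942 of 9495 oral calls were higher (31.0%, against 46.2% with TMM factors) and 2871 of 9119 intraperitoneal calls (31.5%, against 49.9%). Changes of sign were limited to values that had not passed. Il20 in the intraperitoneal groups was -0.09 with plain library size and ran from -0.13 to 0.61 with a library left out. With a library left out, the difference between routes ran from -2.03 to 0.27 for Il24 (positive without vehicle library 59), -0.06 to 0.35 for Il22ra1, -0.12 to 0.09 for Il20rb and -0.02 to 0.12 for Il10rb. The calls of Il19, Il24 and Il20ra held under every alternative run, and those of Il10rb and Il22ra2 under all but the basal keratinocyte scale; the lost calls of Il22ra1 and Il20rb are given with their values, and their cause was not tested. Low counts of Il20, and of Il19 and Il24 in vehicle mice, limit their precision.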
